A study of Mus musculus with 12 samples.

Results

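The transcripts of 9 transcription factors that define the pancreatic β cell were followed in MIN6 cells, a mouse insulinoma line used as a model of the insulin-secreting β cell. The factors were Pdx1, Nkx6-1, Nkx2-2, Mafa, Neurod1, Isl1, Pax6, Foxa2 and Rfx6, taken by gene name from a table of 54022 genes, and each name matched a single row. All 9 passed the filter on low counts, which left 16222 genes for testing. The cells were wild type in that the study describes no genetic change made to them for this experiment. They received vehicle or 100 nM trimethylamine N-oxide (TMAO), a metabolite made by the liver from a product of gut bacteria, for 18 h. In the scheme of the study they were then fasted for 1 h and given low or high glucose. The 4 groups were low glucose with vehicle, low glucose with TMAO, high glucose with vehicle and high glucose with TMAO, with 3 libraries in each. The submitters call these biological replicates. A single cell line limits the model: MIN6 is a tumour line without the other cells of an islet.

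These factors act as a network. Pdx1, Foxa2 and Rfx6 work early, when the pancreas and its endocrine cells form, and stay on in the adult β cell. Neurod1, Nkx2-2, Isl1 and Pax6 drive the endocrine programme, Nkx6-1 holds the β fate against other islet fates, and Mafa comes last and marks the mature cell. Many of them bind the insulin promoter and the enhancers of genes for glucose sensing and secretion.

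All 9 factors were expressed in every library, and high glucose raised some of them. In vehicle-treated cells Mafa, Neurod1 and Nkx2-2 were higher at high glucose, by 58.2%, 49.6% and 20.6%. In TMAO-treated cells Neurod1 and Nkx2-2 were again higher, by 50.9% and 11.7%, while Mafa was 34.4% higher without passing the test. The TMAO results of Nkx2-2 and Mafa changed with the fit: the call of Nkx2-2 was lost in 4 of 10 alternative fits and with any 1 of its 6 libraries left out, and Mafa passed in 6 of 10. The vehicle call of Mafa was lost in 1 of 10 alternative fits and in 3 of 6 fits with a library left out. TMAO itself changed none of the 9 factors past the threshold at either glucose level, and no factor's glucose response differed past the threshold between vehicle and TMAO.

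Promoters are shown first for the factors that edgeR called under both treatments, Neurod1 and Nkx2-2, and for Pdx1 and Pax6, which were not called under either. RefSeq windows from 250 bases before to 50 bases after an annotated start, on GRCm38.p6, were matched by symbol for 8 of the 9 factors, with 11 windows in all. The Neurod1 window is chr2:79456587-79456886 on the minus strand, the Nkx2-2 window chr2:147186353-147186652 on the minus strand, the Pdx1 window chr5:147269847-147270146 on the plus strand, and the first of 2 Pax6 windows chr2:105668646-105668945 on the plus strand. Each is printed 5′ to 3′ along the gene, and capitals mark CACGTG, a palindromic E-box, and TGACG, the core of the cyclic AMP response element.
Neurod1: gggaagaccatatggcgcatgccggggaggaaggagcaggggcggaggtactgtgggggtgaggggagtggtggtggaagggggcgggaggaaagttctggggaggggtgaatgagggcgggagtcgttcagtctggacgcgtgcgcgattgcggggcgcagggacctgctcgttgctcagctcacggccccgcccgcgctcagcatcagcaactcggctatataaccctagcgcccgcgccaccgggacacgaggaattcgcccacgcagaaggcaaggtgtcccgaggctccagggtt
Nkx2-2: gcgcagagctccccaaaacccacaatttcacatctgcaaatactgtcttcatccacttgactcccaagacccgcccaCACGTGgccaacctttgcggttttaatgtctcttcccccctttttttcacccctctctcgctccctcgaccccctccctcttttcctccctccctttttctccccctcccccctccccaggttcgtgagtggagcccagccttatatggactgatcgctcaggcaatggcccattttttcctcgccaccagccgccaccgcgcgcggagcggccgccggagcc
Pdx1: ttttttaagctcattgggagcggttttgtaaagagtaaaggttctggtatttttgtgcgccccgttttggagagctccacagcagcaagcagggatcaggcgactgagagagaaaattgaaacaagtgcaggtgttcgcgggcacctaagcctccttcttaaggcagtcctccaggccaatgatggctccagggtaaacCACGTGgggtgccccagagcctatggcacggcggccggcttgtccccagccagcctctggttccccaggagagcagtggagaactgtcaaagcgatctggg
Pax6: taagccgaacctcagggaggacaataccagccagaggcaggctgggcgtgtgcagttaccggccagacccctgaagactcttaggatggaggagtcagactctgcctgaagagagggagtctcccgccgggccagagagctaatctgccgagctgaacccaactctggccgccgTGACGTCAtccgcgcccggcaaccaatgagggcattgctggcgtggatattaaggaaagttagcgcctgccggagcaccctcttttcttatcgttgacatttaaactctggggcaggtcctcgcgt

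Motifs were searched on both strands. CACGTG was found in the windows of Nkx2-2 and Pdx1, where it begins 173 and 51 bases before the start, and in 7.15% of 32851 windows of all genes. The Neurod1 window held neither CACGTG nor TGACG. It held 1 copy of the looser E-box CANNTG, which also counts every CACGTG and which was found in 72.3% of all windows, while Nkx2-2 and Pdx1 held 3 each. The Pax6 window held the full element TGACGTCA, 76 bases before the start and present in 1.79% of all windows. TGACG, which lies inside that element, was found in windows of Nkx6-1, Isl1, Pax6 and Foxa2 and in 20.8% of all windows. TAAT, the core bound by homeodomains, was found in windows of Nkx2-2, Isl1, Pax6, Foxa2 and Rfx6 and in 58.0% of all windows. TGCTGAC, a piece of the Maf site, was found in a Foxa2 window and 4.67% of all windows, and TGTTTAC, a forkhead site, in no window of a factor and 3.65% of all windows. Neurod1 and Nkx2-2 thus shared only CANNTG, and CACGTG was found in one called factor and in one that was not called. These matches describe letters in a 300-base window and say nothing of binding.

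The genes lie on 5 chromosomes in the mm10 coordinates of the deposited table, and 4 of the 9 are on chromosome 2. Neurod1 (ENSMUSG00000034701) spans chr2:79452521-79456751, Pax6 (ENSMUSG00000027168) chr2:105668900-105697364, Nkx2-2 (ENSMUSG00000027434) chr2:147177546-147194243 and Foxa2 (ENSMUSG00000037025) chr2:148042877-148046969. Pdx1 (ENSMUSG00000029644) spans chr5:147269959-147275848 and Nkx6-1 (ENSMUSG00000035187) chr5:101658139-101664996. Rfx6 (ENSMUSG00000019900) spans chr10:51677756-51730432, Isl1 (ENSMUSG00000042258) chr13:116298281-116309689 and Mafa (ENSMUSG00000047591) chr15:75746843-75747922. The table gives Mafa a span and length of 1080 bases, its single-exon coding region, whereas GENCODE M21 gives the transcript 2739 bases, so Mafa reads outside the coding region were not counted. The other 8 spans are those of GENCODE M21. By the family column of the table, Pdx1, Nkx6-1, Nkx2-2 and Isl1 carry a homeobox, Pax6 is of the PAX family, Neurod1 is a basic helix-loop-helix factor, Mafa a basic leucine zipper factor, Foxa2 a forkhead factor and Rfx6 an RFX factor.

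The libraries held between 16793162 and 22340542 counts on genes, and the factors had mean counts between 1907 for Rfx6 and 13143 for Mafa. The β-cell label was met by the target genes of these factors: the mean level was 25489 FPKM for Ins2, 12107 FPKM for Iapp, 4666 FPKM for Ins1 and 1800.3 FPKM for the granule protein Chga. FPKM are fragments per kilobase of gene, scaled to the depth of the library, and allow levels of different genes to be compared. Of 17 markers of non-endocrine cells, 6 had no count in any library, among them the duct gene Krt19, the acinar gene Ptf1a and the leukocyte gene Ptprc, and most of the summed level of the list was the macrophage gene Cd68, at a mean of 4.04 FPKM. That sum was lowest at low glucose with vehicle, at 5.56 to 6.54 FPKM, against 6.77 to 7.91 FPKM at high glucose with vehicle, 6.91 to 7.40 FPKM at low glucose with TMAO and 7.24 to 7.56 FPKM at high glucose with TMAO. Among 16 markers of other islet lineages and progenitors, Sox9, Neurog3 and Hhex were among those with no count in any library. Glucagon (Gcg), the α-cell hormone, was nevertheless read at a mean of 216 FPKM, and the summed level of that list, most of it Gcg, ran from 221 to 238 FPKM at low and from 244 to 248 FPKM at high glucose. EdgeR called none of the 7 tested genes of that list and none of the 4 tested non-endocrine genes in any comparison, although 1 of the 4 was called with glucose under vehicle in both limma fits, and whether a change in the mixture of cells had a part in the results was not tested. In bulk RNA, fewer expressing cells and less RNA per cell cannot be told apart.

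**Figure D1:**
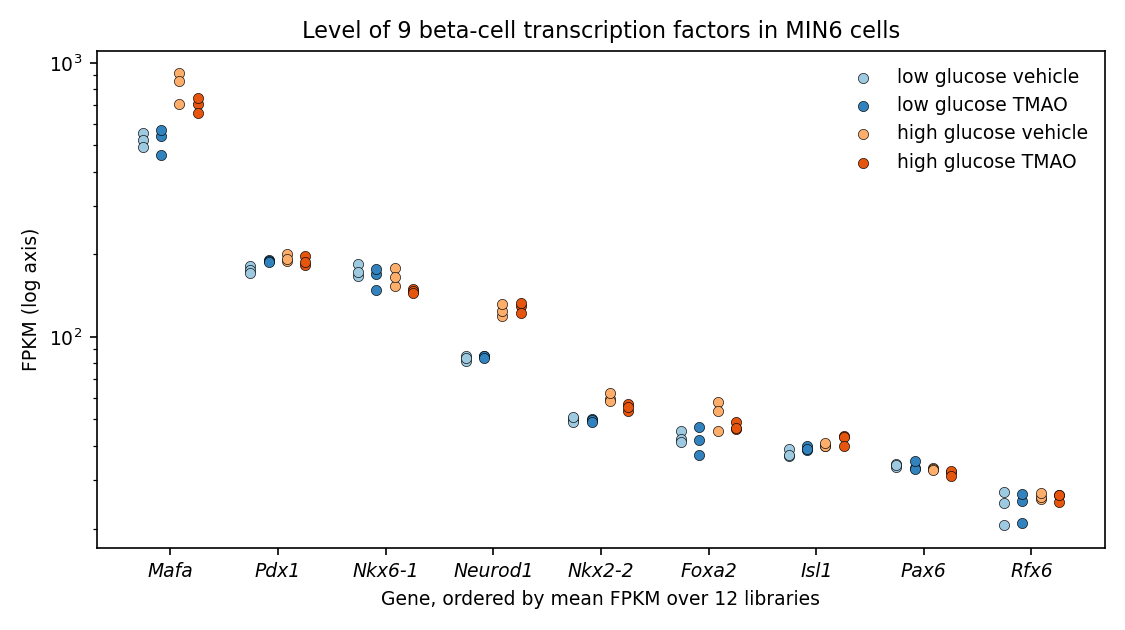
FPKM of the 9 factors on a log axis, ordered by their mean over 12 libraries, with a point for each library coloured by group. Mafa lies between 461 and 915 FPKM, above every library of every other factor, and Rfx6 is the lowest at 20.6 to 27.3 FPKM.

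Mafa was the most abundant of the 9 factors, at a mean of 644 FPKM over the 12 libraries. Among the 1578 genes to which the table gives a transcription factor family, of which 826 had a mean of at least 1 FPKM, Mafa ranked 1, Pdx1 ranked 4, Nkx6-1 ranked 5 and Neurod1 ranked 9. Pdx1 averaged 187 FPKM and Nkx6-1 163 FPKM, and the ranges of these neighbours overlapped, with Pdx1 above Nkx6-1 in 10 of 12 libraries. Neurod1 followed at 105 FPKM, clear of the genes on either side of it. Nkx2-2 at 53.8, Foxa2 at 46.2 and Isl1 at 39.9 FPKM formed a close run. Nkx2-2 exceeded Foxa2 in 12 of 12 libraries although their ranges over all libraries overlapped, and Foxa2 exceeded Isl1 in 11 of 12. Pax6 at 33.2 and Rfx6 at 25.2 FPKM were lowest, ranking 48 and 78 among the transcription factor genes. The places of Pax6, Foxa2 and Nkx2-2 rest on the length used. For Pax6 the table counts the level over 11694 bases, the union of the exons of 26 transcripts, and over its longest transcript of 4427 bases it would be 88.1 FPKM and rank 5 of the 9. Over longest transcripts Nkx2-2 would be 73.2 FPKM and rank 6, and Foxa2, at 51.7 FPKM, would fall below Isl1, at 63.0 FPKM. The 4 highest factors kept theirs, but their lengths were not changed. Pdx1, Nkx6-1 and Neurod1 have 1 transcript each, of the length already used. Mafa was kept at 1080 bases and was not put over its longest transcript of 2739 bases.

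Close relatives were below the factors they resemble. Neurog3, the transient endocrine progenitor factor and a relative of Neurod1, had no count in any library. Foxa1 averaged 0.760 FPKM, Foxa3 8.29 FPKM and Nkx6-2 0.0374 FPKM. Pax4, a repressor of the α fate, averaged 12.6 FPKM, and Rfx3, which pairs with Rfx6, averaged 2.66 FPKM. Among the small Maf proteins, which lack an activation domain and pair with other zipper factors, Mafg averaged 34.8 FPKM and Mafk 12.8 FPKM. These relatives were picked after the values were seen.

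**Figure D2:**
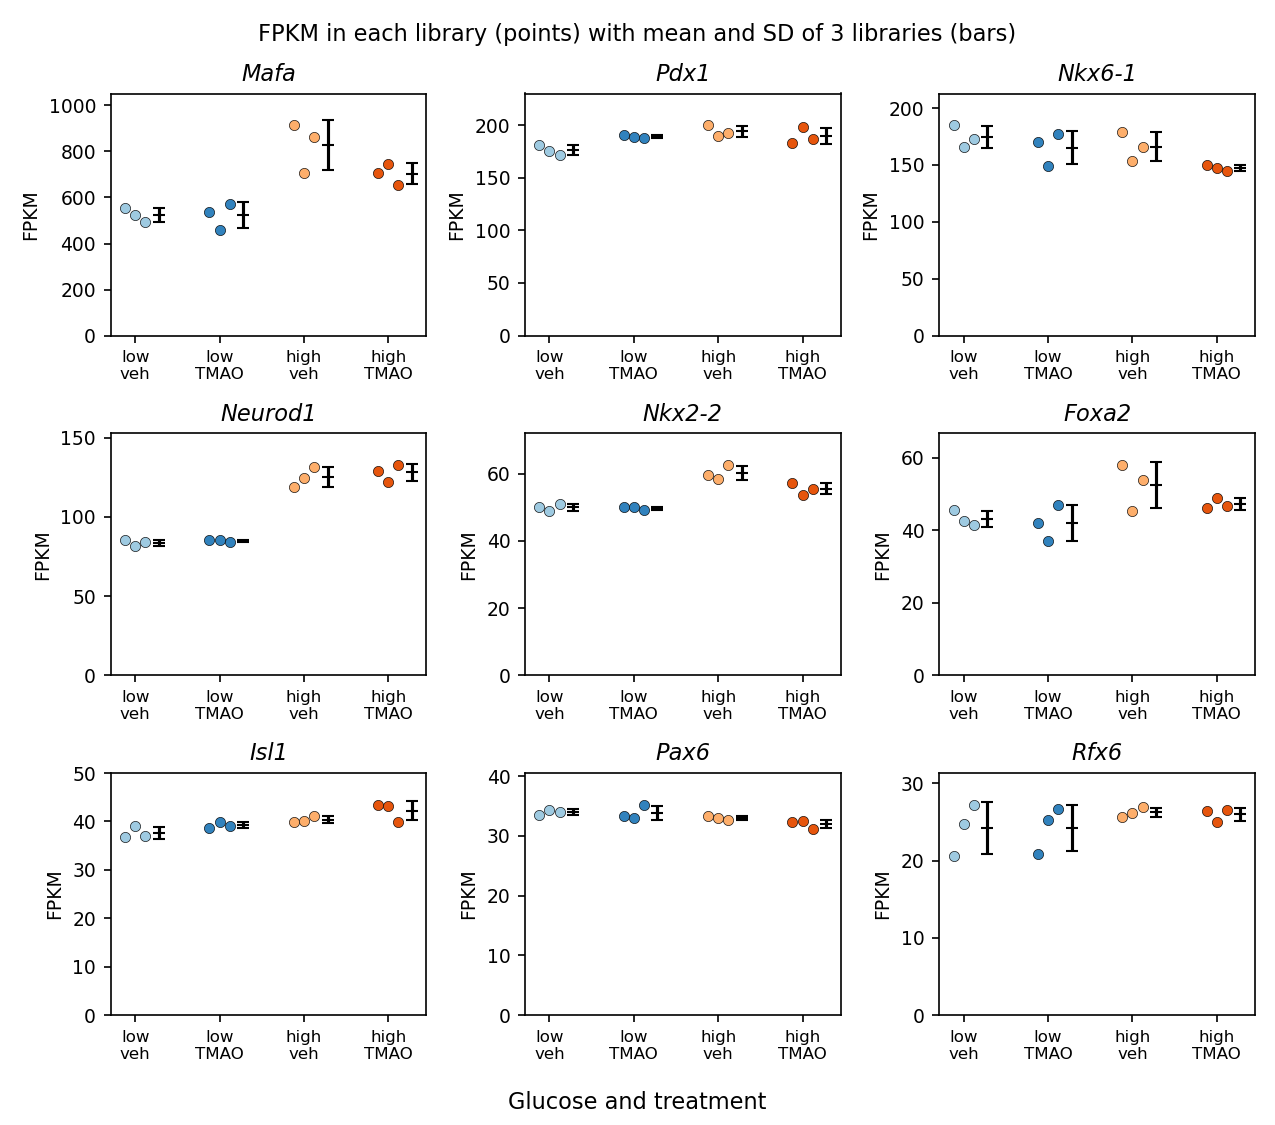
FPKM of each factor in each of the 12 libraries (points) with the mean and SD of the 3 libraries of each group (bars), on axes that start at 0. Neurod1, Mafa and Nkx2-2 separate by glucose under vehicle and under TMAO.

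Whether glucose alters these factors in vehicle-treated cells was asked first. In edgeR, with a quasi-likelihood fit and p-values adjusted over all tested genes by the method of Benjamini and Hochberg, 3 of the 9 factors were called higher at high glucose and none was called lower. Of all tested genes 1.99% were called higher and 1.31% lower, 3.3% in all. An unadjusted p under 0.05 was found for 6 factors and for 13% of all tested genes. The median log2 fold change of the 9 factors was 0.14, against 0.0021 over all tested genes, with 7 factors above 0 and 2 below. The FPKM ranges of the 2 groups did not overlap for 6 factors, of which Isl1, Mafa, Neurod1, Nkx2-2 and Pdx1 were higher and Pax6 lower. This was so for 18.9% of all tested genes, 9.08% higher and 9.77% lower.

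Neurod1, the basic helix-loop-helix activator of the insulin gene, had the lowest adjusted p of the 9 factors in both glucose comparisons. At low glucose with vehicle it stood at 85.4, 81.9 and 84.0 FPKM, and at high glucose with vehicle at 119, 125 and 132 FPKM. With TMAO it stood at 85.4, 85.4 and 84.1 FPKM at low glucose and at 129, 122 and 133 FPKM at high glucose. All 6 high-glucose libraries lay above all 6 low-glucose libraries, and the gap between them was several times the SD within any group. The log2 fold change was 0.58 (SE 0.0446, edgeR adjusted p = 4.62e-11) with vehicle and 0.59 (SE 0.0445, edgeR adjusted p = 3.04e-11) with TMAO. It stayed called in every alternative fit and with each library left out. The whole Neurod1 span lies inside that of Cerkl on the same strand, and 201 exon bases are shared, but Cerkl had 184 to 298 counts per library against a mean of 5428 for Neurod1 and was called in neither glucose comparison. On the other strand Gm26755 shares 154 exon bases with Neurod1 and had at most 4 counts.

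Nkx2-2, a homeobox factor that represses other islet fates, was also called under both treatments. It stood at 50.01, 48.9 and 51.0 FPKM at low glucose and 59.4, 58.5 and 62.6 FPKM at high glucose with vehicle. With TMAO the values were 49.997, 49.9 and 49.0 FPKM at low glucose and 57.0, 53.7 and 55.5 FPKM at high glucose. The high-glucose libraries were above the low-glucose ones under both treatments, and those with TMAO were below those with vehicle. The log2 fold change with glucose was 0.27 (SE 0.0447, edgeR adjusted p = 0.000177) with vehicle and 0.16 (SE 0.0448, edgeR adjusted p = 0.0393) with TMAO. The second call was lost whichever of its 6 libraries was left out, with adjusted p from 0.0571 to 0.158, and in 4 of 10 alternative fits. These were both limma fits on FPKM (adjusted p = 0.0527 with a pseudocount of 1), the fit without a filter on low counts (0.0816) and that on the 6 libraries of the comparison alone (0.0766).

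An antisense RNA within the Nkx2-2 span, 6430503K07Rik (chr2:147187424-147188407), rose with it. Its mean level went from 25.7 ± 4.09 to 45.5 ± 3.37 FPKM (SD, n = 3) with glucose under vehicle and from 27.8 ± 3.30 to 42.1 ± 1.44 FPKM (SD, n = 3) under TMAO. The log2 fold changes were 0.83 (SE 0.101, edgeR adjusted p = 1.07e-06) and 0.61 (SE 0.101, edgeR adjusted p = 0.000192), larger values than those of Nkx2-2 itself. It shares no exon base with Nkx2-2 in GENCODE M21 but lies on the other strand of the gene, and the library kit does not mark strand, so its reads and those of unspliced Nkx2-2 RNA cannot be told apart. A second antisense gene, Nkx2-2os, shares 278 exon bases with Nkx2-2 and had at most 2 counts in any library.

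Mafa, the zipper factor of the mature β cell and an activator of insulin transcription, had the largest fold change with vehicle and also a wide spread. At low glucose with vehicle it stood at 556, 522 and 493 FPKM, and at high glucose at 915, 708 and 861 FPKM. With TMAO it stood at 539, 461 and 570 FPKM at low glucose and at 707, 746 and 656 FPKM at high glucose. The high-glucose libraries were above the low-glucose ones under both treatments, with no overlap. The log2 fold change was 0.66 (SE 0.112, edgeR adjusted p = 0.0126) with vehicle and 0.43 (SE 0.111, edgeR adjusted p = 0.0917) with TMAO. The call with vehicle was lost without low glucose vehicle replicate 2 (adjusted p = 0.0569) or 3 (0.0546) or high glucose vehicle replicate 3 (0.0582), and when only the 6 libraries of the comparison were fitted (0.0532). Its TMAO value passed the threshold in several other fits, among them DESeq2's Wald test (adjusted p = 0.00599) and limma on FPKM with a pseudocount of 1 (adjusted p = 0.0470).

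Foxa2, the forkhead pioneer factor of endoderm, had a fitted value with vehicle close to that of Nkx2-2 but was not called. It stood at 45.5, 42.5 and 41.3 FPKM at low glucose and 58.0, 45.4 and 53.9 FPKM at high glucose with vehicle, so the groups overlapped by 1 library. With TMAO it stood at 41.98, 37.0 and 47.0 FPKM at low glucose and at 46.1, 49.0 and 46.6 FPKM at high glucose. The log2 fold change was 0.28 (SE 0.0950, edgeR adjusted p = 0.187) with vehicle and 0.17 (SE 0.0954, edgeR adjusted p = 0.457) with TMAO. Without high glucose vehicle replicate 2, the lowest of its group, the vehicle value was 0.38 with an adjusted p of 0.00313. It also passed in 4 other fits, with an adjusted p of 0.0168 in DESeq2's Wald test.

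Pdx1, the homeobox factor at the centre of the network, changed little and with little spread. At low glucose with vehicle it stood at 181, 176 and 172 FPKM, and at high glucose at 200, 189 and 192 FPKM. With TMAO it stood at 190, 189 and 188 FPKM at low glucose and at 183, 198 and 187 FPKM at high glucose. The vehicle groups did not overlap, whereas the high-glucose TMAO libraries lay on either side of the low-glucose ones. The log2 fold change was 0.14 (SE 0.0417, edgeR adjusted p = 0.0572) with vehicle and 0.0060 (SE 0.0417, edgeR adjusted p = 0.972) with TMAO. The vehicle value passed in 4 other fits, with an adjusted p of 0.0237 in DESeq2. Its antisense partner Plut, which shares no exon base with it, had 177 to 313 counts per library and was not called.

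The other 4 factors were not called with glucose under either treatment. Nkx6-1, which holds the β fate, stood at 185, 166 and 173 FPKM at low and 179, 154 and 166 FPKM at high glucose with vehicle, and at 170, 149 and 177 FPKM at low and 149.5, 148 and 144 FPKM at high glucose with TMAO. Its ranges overlapped under both treatments, and the log2 fold change with TMAO was -0.17 (edgeR adjusted p = 0.181). Without low glucose TMAO replicate 2, the lowest of its group, that value was -0.24 with an edgeR adjusted p of 0.00868. The value also passed in 3 of 10 alternative fits, among them that without a filter on low counts (edgeR adjusted p = 0.0090) and that with a replicate block.

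Isl1, a LIM-homeobox partner of Neurod1 on the insulin promoter, ranged from 36.7 to 39.9 FPKM over the 6 low-glucose libraries and from 39.9 to 43.5 FPKM over the 6 high-glucose libraries. Within each treatment its groups did not overlap, with log2 fold changes of 0.11 (edgeR adjusted p = 0.300 with vehicle, 0.240 with TMAO). Pax6, which is needed for hormone gene expression, ranged from 32.9 to 35.2 FPKM at low and from 31.2 to 33.4 FPKM at high glucose. It was lower at high glucose without overlap under each treatment, by log2 fold changes of -0.041 (edgeR adjusted p = 0.753) with vehicle and -0.078 (edgeR adjusted p = 0.382) with TMAO. Its antisense neighbour Pax6os1 shares no exon base with it and had 77 to 116 counts per library, against a mean of 7350 for Pax6. Rfx6, which acts upstream of several of the others in endocrine progenitors, was the most variable for its level at low glucose, from 20.6 to 27.3 FPKM with vehicle and from 20.9 to 26.7 FPKM with TMAO. Replicate 1 was the lowest and replicate 3 the highest in both of these groups. At high glucose its 6 libraries stayed between 25.0 and 26.9 FPKM, inside the low-glucose range.

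In TMAO-treated cells taken as a whole, 2 of the 9 factors were called higher with glucose and none lower, where 2% of all tested genes were called higher and 1.64% lower, 3.64% in all. An unadjusted p under 0.05 was found for 5 factors and for 14.7% of all tested genes. The groups did not overlap for 5 factors, Isl1, Mafa, Neurod1 and Nkx2-2 higher and Pax6 lower, as for 18.6% of all tested genes, 8.83% higher and 9.73% lower. The median log2 fold change of the factors was 0.11, against 0.0012 over all tested genes, and the same 7 factors were above 0 and the same 2, Nkx6-1 and Pax6, below. The vehicle and TMAO comparisons share no library.

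**Figure D3:**
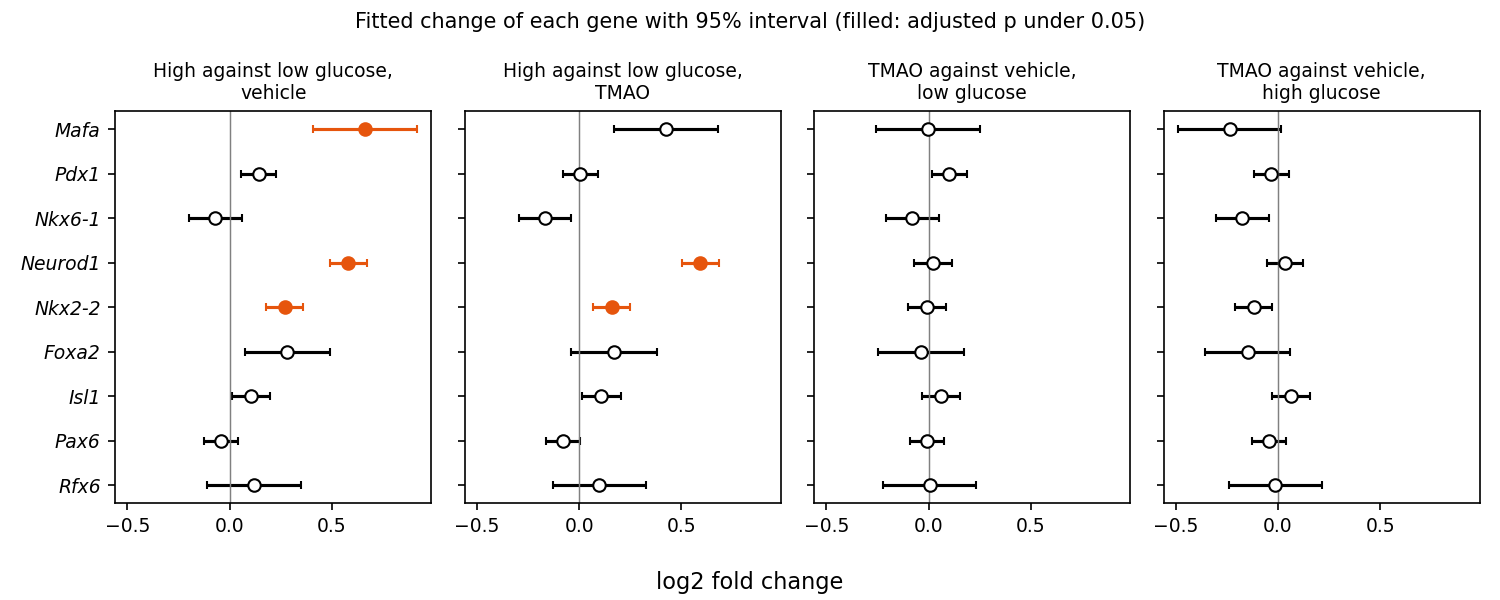
Log2 fold changes of the 9 factors with 95% intervals in 4 comparisons, with filled orange points where the edgeR adjusted p is under 0.05. Mafa, Neurod1 and Nkx2-2 are filled for glucose with vehicle, Neurod1 and Nkx2-2 for glucose with TMAO, and no factor is filled for TMAO against vehicle.

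Whether TMAO alters the factors was asked at each glucose level. At low glucose edgeR called none of the 9 factors, where 0.00616% of all tested genes, a single gene that is not among them, were called. Only Pdx1 had an unadjusted p under 0.05, where 2.2% of all tested genes did. Pdx1 was 188 to 190 FPKM in the TMAO libraries and 172 to 181 FPKM in the vehicle libraries, without overlap, and was the only factor so separated, where 6.34% of all tested genes were, 3.15% higher and 3.19% lower. Its log2 fold change was 0.10 with a 95% interval from 0.017 to 0.19 (edgeR adjusted p = 1.000).

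At high glucose edgeR again called none of the 9 factors and 0% of all tested genes, with an unadjusted p under 0.05 for 2 factors, Nkx6-1 and Nkx2-2, and for 5.35% of all tested genes. DESeq2 called none of the 9 in either TMAO comparison. Nkx6-1 was lower in all 3 TMAO libraries, at 144 to 149.5 FPKM, than in the vehicle libraries, at 154 to 179 FPKM, a log2 fold change of -0.18 with a 95% interval from -0.30 to -0.046. Nkx2-2 was lower at 53.7 to 57.0 against 58.5 to 62.6 FPKM, a log2 fold change of -0.12 with an interval from -0.21 to -0.028. Pax6 was lower at 31.2 to 32.5 against 32.6 to 33.4 FPKM, with an interval that spanned 0. These were the 3 factors without overlap, all lower with TMAO, as were 5.68% of all tested genes, while 5.47% were higher without overlap and 11.2% lay apart in either direction. With each library's trend of counts on GC content removed, an alternative described with the GC contents of the factors, the value of Nkx6-1 was -0.11 and that of Nkx2-2 -0.068. The edgeR adjusted p was 0.910 for both Nkx6-1 and Nkx2-2 and 0.945 for Pax6.

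The intervals set what these 3 libraries a group could show. At high glucose the fitted change of Neurod1 with TMAO was 2.37%, with a 95% interval from -3.83% to 8.97%, and that of Pdx1 was -2.27%, from -7.87% to 3.67%. For Mafa it was -15.1%, from -28.7% to 1.155%, and for Rfx6 -0.972%, from -15.4% to 15.97%. Averaged over the 2 glucose levels, TMAO gave 0 called factors in edgeR, with 1, Nkx6-1 at a log2 fold change of -0.13, at an unadjusted p under 0.05, where 0% of tested genes were called and 3.62% had such a p.

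Whether TMAO alters the response to glucose was tested as the difference between the 2 glucose effects. For 7 of 9 factors the fitted glucose effect was lower with TMAO, at a median difference of -0.097 on the log2 scale against -0.0012 over all tested genes. With the GC trend removed it was lower for 9 of 9, at a median of -0.045 against 0.0021 over all tested genes. Nkx2-2 was then at -0.049, Nkx6-1 at -0.022 and Foxa2 at -0.038. EdgeR called 0 factors and 0% of tested genes. Pdx1 alone had an unadjusted p under 0.05, where 3.36% of tested genes did, with a difference of -0.14 (95% interval -0.26 to -0.015, edgeR adjusted p = 1.000). For Mafa the difference was -0.24 (95% interval -0.59 to 0.12), for Nkx2-2 -0.11 (-0.24 to 0.019) and for Neurod1 0.013 (-0.12 to 0.14). So Mafa being called with vehicle and not with TMAO is not shown to be a difference between the treatments.

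GC content moved with the spread of several factors. The transcripts of Mafa (65.0% GC), Nkx6-1 (59.0%), Foxa2 (58.4%) and Nkx2-2 (58.0%) lie above the 90th percentile of tested genes (57.9%, median 49.9%), and Neurod1 (43.6%) and Rfx6 (44.6%) below the median. GC content was taken over whole transcripts, for Mafa over 2739 bases, although only its coding region of 1080 bases was counted. A trend of counts on GC content, fitted over all genes in each library, gave log2 values at the GC content of Mafa from -0.13 in high glucose TMAO replicate 3 to 0.17 in high glucose vehicle replicate 1. The next extremes were low glucose TMAO replicate 3, at 0.14, and low glucose TMAO replicate 2, at -0.10. Mafa had its highest value of the group in both libraries with a high trend and its lowest in both with a low trend.

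**Figure D4:**
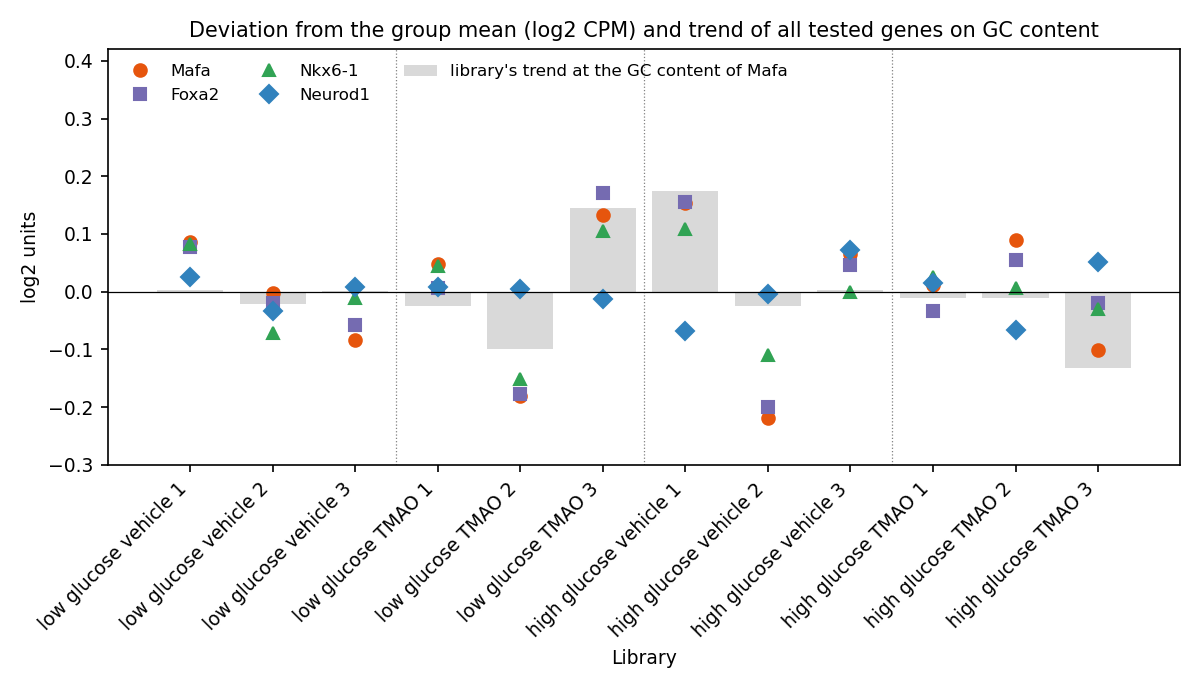
Deviation of Mafa, Foxa2, Nkx6-1 and Neurod1 from their group means in each library (points, log2 CPM) over the library's trend at the GC content of Mafa (grey bars, log2). Mafa, Foxa2 and Nkx6-1 lie above 0 in low glucose TMAO replicate 3 and high glucose vehicle replicate 1 and below 0 in low glucose TMAO replicate 2, and they are also low in high glucose vehicle replicate 2, where the bar is short.

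Deviations from the group means ran together in Mafa, Foxa2 and Nkx6-1. Over the 12 libraries Pearson's r was 0.95 between Mafa and Foxa2, 0.91 between Nkx6-1 and Foxa2, and 0.89 between Mafa and Nkx6-1. Nkx2-2, whose transcripts are also rich in GC, did not follow them, with an r of 0.050 to Mafa, -0.00090 to Foxa2 and 0.13 to Nkx6-1. Nor did Neurod1, with an r of -0.30 to Mafa and 0.70 to Nkx2-2. With the GC trend removed r was 0.84, 0.78 and 0.71 for the first 3 pairs, and the within-group SD of Mafa went from 0.14 to 0.089 and that of Foxa2 from 0.13 to 0.097 on the log2 scale. That SD fell in 4 of the 9 factors, Nkx6-1 and Rfx6 being the others, and was higher in 5, most of all in Nkx2-2, where it went from 0.038 to 0.065. The points share libraries, depth and base composition, and these values are descriptions.

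Refitting with that trend removed, an alternative chosen after the data were seen, left the glucose effects in place and brought those of Mafa closer together. The trend was fitted without regard to group, so a group difference that runs with GC content would be removed with it. Mafa was 0.60 higher on the log2 scale with vehicle (edgeR adjusted p = 1.41e-07) and 0.49 higher with TMAO (edgeR adjusted p = 3.86e-06), called under both treatments. Its difference between the 2 effects went from -0.24 to -0.11, and its change with TMAO at high glucose from -0.24 to -0.13. Foxa2 was then called under both, at 0.25 (edgeR adjusted p = 0.0122) with vehicle and 0.21 (edgeR adjusted p = 0.0445) with TMAO. Neurod1 and Nkx2-2 were also called under both. Over all genes this removal turned the balance of calls: 331 of 785 called genes were higher with glucose under vehicle, against 323 of 536 without it, and 303 of 719 under TMAO, against 325 of 591.

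The genes whose levels ran most like the called factors were taken by Pearson's r of log2 CPM over the 12 libraries, among tested genes with a mean of at least 50 counts. For Neurod1 these were Nr4a2 (r = 0.996), an orphan nuclear receptor, Errfi1 (0.995), a feedback inhibitor of the EGF receptor, and Gem (0.995), a small GTPase that inhibits calcium channels. Their own glucose effects with vehicle were larger than that of Neurod1, with log2 fold changes of 1.81, 1.20 and 1.48. For Mafa they were Vgf (0.983), a secretory granule precursor, Cbarp (0.977), a regulator of calcium channels, and Irf2bpl (0.965). For Nkx2-2 they were Nedd9 (0.950), a docking protein, Mafg (0.946) and Clp1 (0.938), a factor of RNA 3′ processing. The 2 glucose levels dominate such values.

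**Figure D5:**
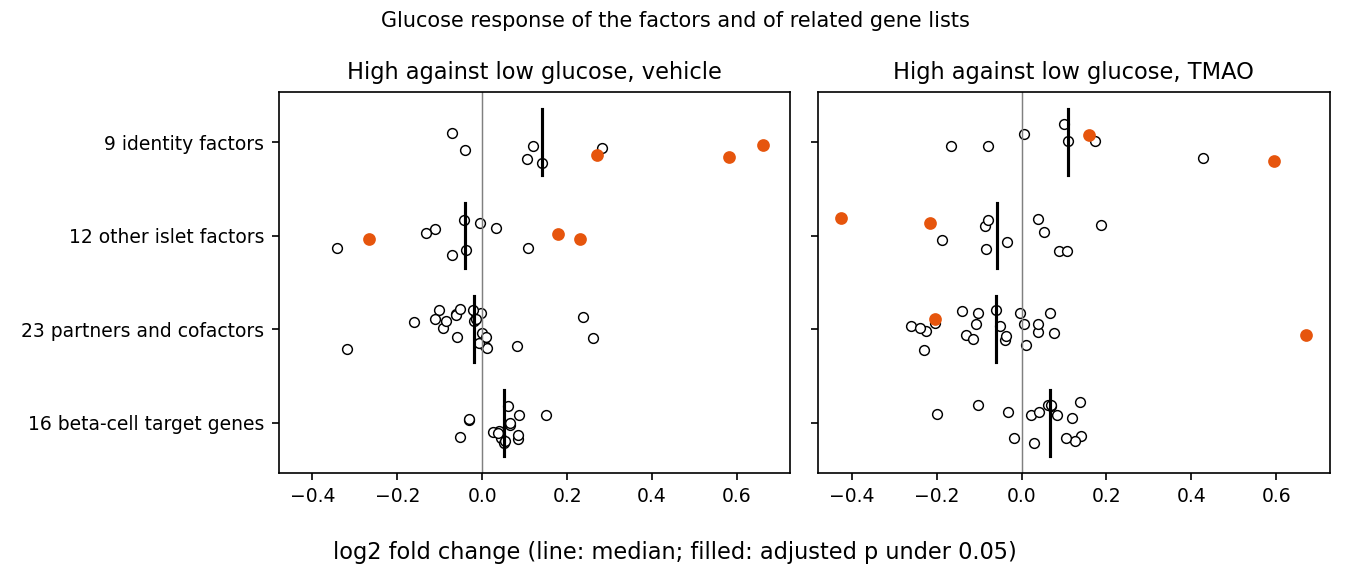
Log2 fold changes with glucose of the 9 factors and of the tested genes of 3 related lists, with vehicle (left) and TMAO (right), where a line marks the median of a list and filled orange points have an edgeR adjusted p under 0.05. The median of the 9 factors is 0.14 and 0.11, that of 16 target genes 0.052 and 0.066, and those of the other lists are below 0.

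Other islet transcription factors moved in both directions. Of 12, 2 were called higher and 1 lower with glucose under vehicle and none higher and 2 lower under TMAO, with medians of -0.041 and -0.057 on the log2 scale. Of all tested genes 1.99% were called higher and 1.31% lower with vehicle, and 2% higher and 1.64% lower with TMAO. Insm1, a zinc-finger factor of endocrine differentiation, went from 79.9 ± 3.24 to 93.7 ± 9.09 FPKM (SD, n = 3) with vehicle, and its log2 fold change of 0.23 lay just inside the threshold (edgeR adjusted p = 0.04998). Tshz1 rose by 0.18 (edgeR adjusted p = 0.00881). Mnx1, a homeobox factor of the β lineage, fell by 0.27 on the log2 scale (edgeR adjusted p = 0.0353) with vehicle and fell by 0.42 (edgeR adjusted p = 0.000325) with TMAO. The vehicle calls of Insm1 and Mnx1 were each lost in 5 of 6 fits with a library left out, with edgeR adjusted p up to 0.190 and 0.285, and that of Tshz1 in 2 of 6 (up to 0.119). With a library left out the list held 0 to 2 calls with vehicle.

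Among 23 DNA-binding partners and cofactors, none was called with glucose under vehicle and 2 were called under TMAO, where 3.3% and 3.64% of all tested genes were called. None of the 23 was called for the difference of the glucose effects. The glucose counts of this list moved with the fit, from 0 to 3 with vehicle and from 1 to 6 with TMAO over 10 alternatives. With a library left out they ranged from 1 to 4 with TMAO. Id1, an inhibitor that ties up the E proteins with which Neurod1 pairs, rose in TMAO-treated cells from 5.69 ± 0.462 to 9.09 ± 0.581 FPKM (SD, n = 3). Its log2 fold change was 0.67 (edgeR adjusted p = 0.000412), against 0.24 with vehicle (edgeR adjusted p = 0.412). Tle3, a Groucho-type corepressor, fell by 0.20 in TMAO-treated cells (edgeR adjusted p = 0.0286), a call lost in 5 of 6 fits with a library left out (edgeR adjusted p up to 0.167). The most abundant of the list were Smarca4, the motor of a chromatin remodeller that Pdx1 recruits, at 60.01 FPKM, the ubiquitin ligase adaptor Spop at 39.0 FPKM, Id2 at 37.1 FPKM and the LIM-complex protein Ssbp4 at 36.5 FPKM.

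Target genes of the factors showed no called change, where 3.3% of all tested genes were called with glucose under vehicle and 3.64% under TMAO. None of 16, among them Ins1, Ins2, Iapp, Slc2a2, G6pc2 and Slc30a8, was called by edgeR in any of the 6 comparisons, with the lowest edgeR adjusted p at 0.0743 for glucose under TMAO. In that comparison 1 was called without low glucose TMAO replicate 1 and 2 without replicate 2. Their median log2 fold change with glucose was 0.052 with vehicle and 0.066 with TMAO. Ins2 changed by 0.084 (SE 0.0475) with vehicle and 0.070 (SE 0.0475) with TMAO. TMAO called none of these lists' genes at either glucose level, and the median change of the target genes was 0.011 at low and 0.015 at high glucose.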

How the data were processed

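RNA of 12 MIN6 cultures was poly-T selected and sequenced in pairs of 150 bases (NEBNext Ultra, without strand). The authors deposited raw counts per gene and FPKM, normalised to gene length and depth, on mm10 coordinates. The submitters' processing notes name HISAT2 2.0.5, featureCounts 1.5.0-p3 and DESeq2 1.16.1. Groups came from the sample labels. The members and gene lists were chosen with earlier results of these data known.

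Counts were tested with edgeR 4.0.16 (quasi-likelihood F test, TMM, robust; R 4.3.3) on all 12 libraries with 4 group means, after filterByExpr, in 6 comparisons, with a call at an adjusted p under 0.05 over 16222 genes. Depth (16793162 to 22340542 counts) sets the counting error. FPKM were used for levels only, and in limma 3.58.1 as an alternative (log2 of FPKM plus 1 or 0.1). Other alternatives were DESeq2 1.42.0, filters, a replicate block, a GC offset and each library left out. The edgeR steps were tested on simulated data. Named genes were all members, members' overlapping genes, called or most abundant genes of each list, and the 3 nearest genes (at least 50 mean counts) of each called member. Results for some genes of these lists are not reported here.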

Additional observations from a re-analysis of the deposited data

How the results depend on the processing

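With 3 libraries a group, the width of the intervals limits every statement about TMAO. No factor was called for TMAO or for the difference of glucose effects under any alternative run. Neurod1 was called with glucose under both treatments in every fit.

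Factors called with glucose numbered 5 with vehicle in DESeq2's Wald test, where 499 genes were called in all (3 in edgeR, of 536). With TMAO they numbered 4 with the GC trend removed, of 719 genes called, and 5 with a replicate block as well, of 990 (2 in edgeR, of 591). With a library left out the factors called ranged from 2 to 4 with vehicle and from 1 to 2 with TMAO. Genes called with glucose under vehicle numbered 1021 with block and GC together (536 in edgeR) and 328 to 475 with a library left out. Under TMAO they numbered 337 and 347 in limma with pseudocounts of 0.1 and 1, 990 with block and GC, and 344 to 657 with a library left out (591 in edgeR). For TMAO at low glucose the count was 0 in both limma fits, 7 without a filter, 3 on its own libraries, 2 with block and GC and 0 to 1 with a library left out. At high glucose it was 3 in DESeq2 and on its own libraries, 13 without a filter, 2 with block and GC and 0 to 1 with a library left out. For TMAO over both glucose levels it was 2 in DESeq2, 9 without a filter, 1 with the GC trend removed, 2 with block and GC and 0 to 2 with a library left out, and for the difference of effects 1 in DESeq2, 6 without a filter and 0 to 2 with a library left out. The cause was not tested.

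Signs turned only for values near 0. Isl1 had a difference of effects of -0.015 with the GC trend removed and -0.016 with the block too, and Neurod1 -0.027 and -0.028. Neurod1 with TMAO at high glucose was -0.00014 and -0.00055, Pdx1 0.0011 and 0.00089. Mafa with TMAO at low glucose was 0.00021 with at least 10 counts in every library. With a library left out, TMAO at low glucose ranged from -0.13 to 0.044 for Foxa2, -0.069 to 0.082 for Mafa, -0.025 to 0.0060 for Nkx2-2, -0.038 to 0.012 for Pax6 and -0.10 to 0.10 for Rfx6. TMAO at high glucose ranged from -0.030 to 0.014 and over both levels from -0.057 to 0.045 for Rfx6. The difference of effects ranged from -0.025 to 0.041 for Isl1, -0.020 to 0.050 for Neurod1 and -0.12 to 0.086 for Rfx6, and glucose with TMAO from -0.028 to 0.031 for Pdx1.

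Replicate numbers were not taken to pair the libraries, since not every same-numbered pair correlated above 0.1: over 18 such pairs deviations correlated at -0.038 to 0.21 (mean 0.033, against -0.016 for other pairs). Between low glucose vehicle and low glucose TMAO r was 0.028 to 0.21, over 0.1 in 2 of 3 pairs, against at most 0.049 for other pairs of these groups, and no pair between other groups was over 0.1. That 9 of 12 libraries were nearest their own number is a hint from the data, not the design. With the number as a block, genes called with glucose were 717 with vehicle and 783 with TMAO, Pdx1 was called with vehicle (adjusted p = 0.0263) and Nkx6-1 with TMAO (-0.16, adjusted p = 0.0254), as were 2 of 16 target genes with TMAO.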
